A study of Homo sapiens with 9 samples.

Results

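The transcripts of 10 cell cycle genes, 7 cyclins and 3 cyclin-dependent kinases (CDKs), were followed in thyroid cancer cells given YK-4-279. They were taken by symbol, as CCND1, CCND3, CCNE1, CCNE2, CCNA2, CCNB1, CCNB2, CDK1, CDK2 and CDK4, which are main but not all D, E, A and B cyclins and their kinases, from the 58735 genes of the deposited table, of which 19951 are protein-coding. KHM-5M, a human thyroid cancer cell line, was kept for 24 h with DMSO, the vehicle, or with YK-4-279 at 0.3 µM or 1 µM, and polyadenylated RNA was sequenced from 3 samples per condition, 9 in all. The labels give no genotype; in the study the line is described as carrying mutations of BRAF and of the TERT promoter, which all groups share. The conditions differ in agent and dose within 1 cell line and at 1 time point. YK-4-279 is a small molecule that was developed to block the binding of ETS fusion proteins to RNA helicase A and is used as an inhibitor of ETS family transcription factors. No label states whether the 3 samples of a condition were separate cultures, and the study's methods give another number of replicates than the labels, so p-values measure the spread between these samples, which may be technical.

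A CDK is active only when a cyclin is bound to it, and cyclins are made and destroyed at set phases of the division cycle. D cyclins with CDK4 act in G1, E cyclins with CDK2 at entry into S phase, cyclin A with CDK2 and then CDK1 through S and G2, and B cyclins with CDK1 drive mitosis. The kinases are regulated mainly through cyclin binding, inhibitors and phosphorylation, and in culture many of these transcripts rise and fall with the cycle. In RNA from a whole culture, fewer cells in a phase and less RNA per cell cannot be told apart.

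Each sample held 16903251 to 18238884 counted reads, with overlapping totals between the groups. DMSO sample 2 stood apart from the other libraries on the second principal component, so the counts of called genes are also given without it. PAX8, a thyroid lineage transcription factor, was read at 21.6 to 27.7 FPKM (fragment counts scaled for gene length and library size). NKX2-1 and FOXE1, also thyroid lineage factors, were low, with 0 to 10 and 7 to 34 reads per sample. TG, thyroglobulin, had 0 to 4 reads per sample and TSHR, the thyrotropin receptor, 0 to 2. The keratins KRT8 and KRT18 were abundant, and CDH1, E-cadherin, had 0 to 5 reads. TG and TSHR, markers of differentiated thyroid cells, were thus at or near 0, and the leukocyte markers PTPRC, CD3E and CD68 had 0 to 2 reads.

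In DMSO the members spanned a wide range of FPKM, the scale on which levels of different genes are compared here. CCNB1 stood highest, at rank 176 of the 19951 protein-coding genes, and CCNE2 lowest, at rank 8793. The order of mean levels in DMSO was CCNB1, CDK1, CCNA2, CCND1, CDK4, CCNB2, CDK2, CCND3, CCNE1 and CCNE2. Among neighbours in that order, CDK1 and CCNA2 were the pair whose 3 values overlapped. At 1 µM the order became CCNB1, CCND1, CCNA2, CCNB2, CDK4, CDK1, CDK2, CCND3, CCNE1 and CCNE2, with no overlap between neighbours. By mean level CDK1, the mitotic kinase, thus went from the second place to the sixth, and CCND1 from the fourth to the second. In DMSO the values of CDK1 (60.3 to 74.1) also spanned those of CCND1 (60.7 to 62.7). At 1 µM the highest value of CDK1, 44.40, lay just below the lowest of CDK4, 44.45.

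**Figure D1:**
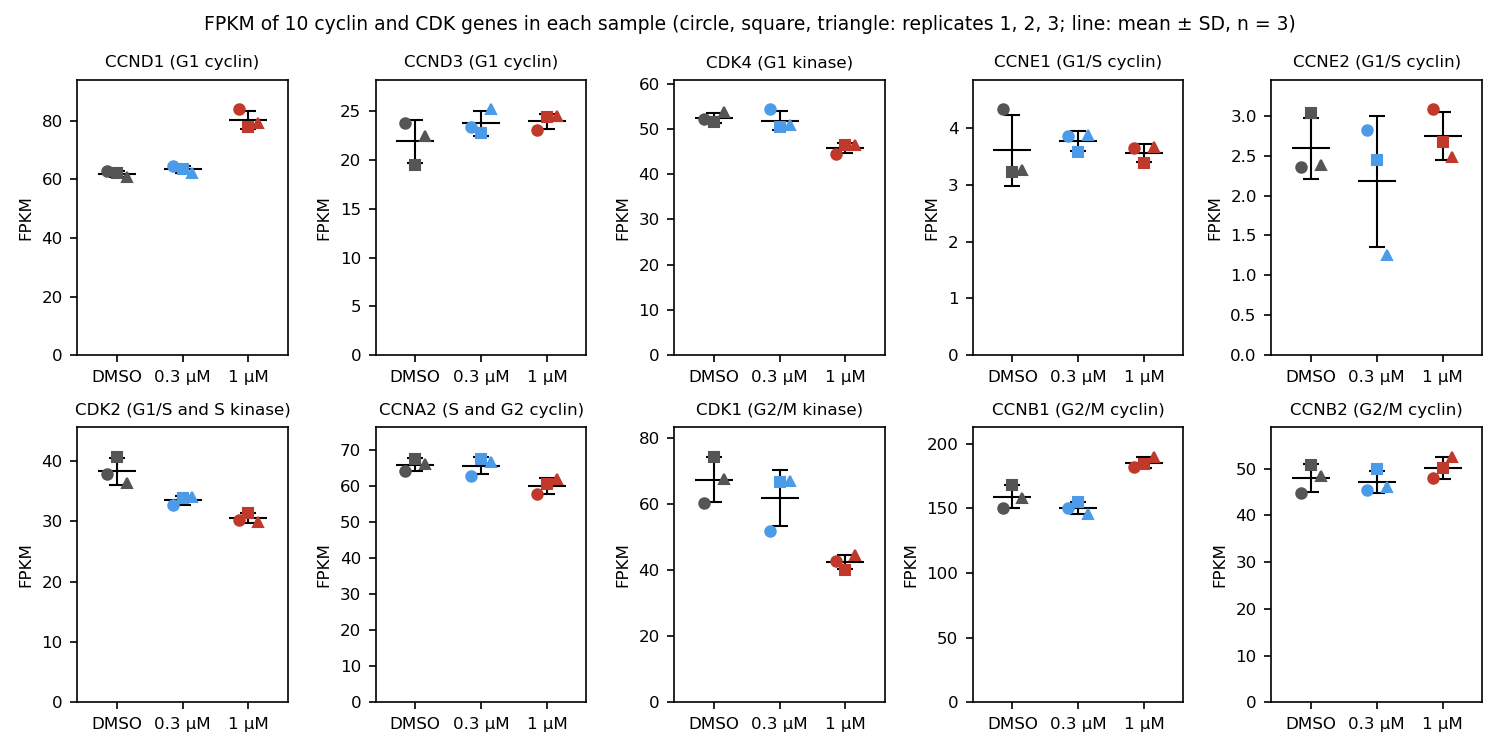
FPKM of each of the 10 genes (vertical axes, each from 0) in the 3 DMSO, 3 0.3 µM and 3 1 µM samples, in the order of the cell cycle. Symbols are replicates 1, 2 and 3 (circle, square, triangle) and lines are mean ± SD; the 1 µM samples of CDK1 (40.1 to 44.4) lie below all others, and those of CCND1 (78.0 to 83.8) and CCNB1 (182 to 190.0) above.

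At 1 µM YK-4-279, CDK1, CDK2 and CDK4, the 3 kinases, were lower than in DMSO, and CCND1 and CCNB1 were higher. In edgeR (quasi-likelihood test, p-values adjusted by Benjamini-Hochberg over 15617 genes), at an adjusted p under 0.05, 3 of the 10 members were lower, where 9.95% of all genes tested were lower. In the other direction 2 members were higher, where 7.67% of all genes were. The median log2 fold change of the members was 0.01, beside -0.01 over all genes tested. Without DMSO sample 2 the counts were again 3 and 2, with the same genes. With each sample left out in turn 2 to 3 members were lower and 1 to 2 were higher, the 1 being CCND1 without DMSO sample 1, DMSO sample 3, 1 µM sample 2 or 1 µM sample 3. The 3 samples of each group did not overlap for 4 members that were lower at 1 µM (19.1% of all genes) and for 2 that were higher (16.7% of all genes); the gene in the first set that missed the threshold was CCNA2. With the fold change required to exceed 1.5 as well, the rule used for differentially expressed genes here, 1 member passed, CDK1, where 3.92% of the protein-coding genes tested did.

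At 0.3 µM none of the 10 members was called in either direction, and neither was any other gene. The share of genes called at this dose was 0% for lower and 0% for higher, and 0% with the fold rule added. At an unadjusted p under 0.05, 594 of 15762 genes and 1 member, CDK2, passed. DESeq2 called 0 members. The 3 values of CDK2 lay below those of DMSO, where 5.27% of all genes were lower without overlap, and no member was higher without overlap, where 3.16% of all genes were.

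The doses were also compared with each other, over 15583 genes. CCND1 and CCNB1 were higher at 1 µM than at 0.3 µM (5.85% of all genes were higher) and CDK1 was lower (6.75% of all genes were lower). No member exceeded 1.5-fold between the doses, where 2.43% of the protein-coding genes did. Values did not overlap for 4 members that were lower (CDK4, CDK2, CCNA2 and CDK1, against 16.1% of all genes) and for 2 that were higher (against 15.3%). These comparisons share samples with those against DMSO, so the 3 sets of values are not independent of each other.

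**Figure D2:**
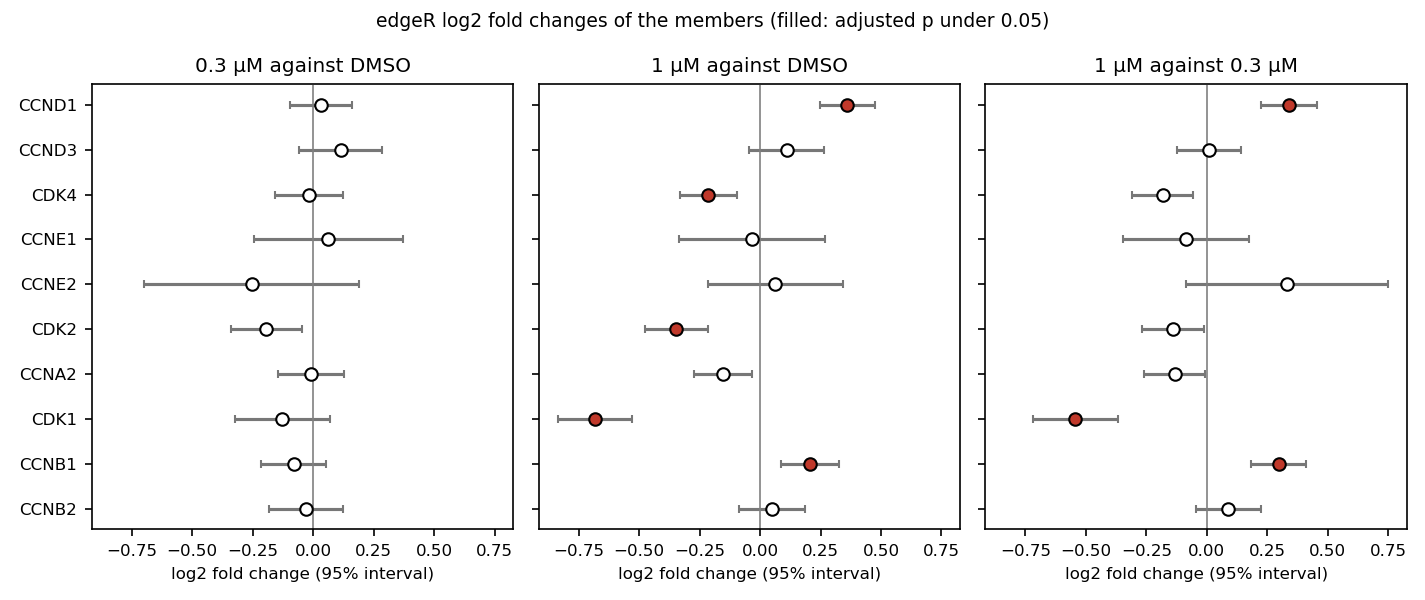
Log2 fold change of each gene with its 95% interval (horizontal axes, log2) in the 3 comparisons, from edgeR. Filled points have an adjusted p under 0.05: none at 0.3 µM against DMSO, 5 at 1 µM against DMSO (CDK1 lowest at -0.68, CCND1 highest at 0.36) and 3 at 1 µM against 0.3 µM.

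CCND1, cyclin D1, couples growth factor signals to G1 progression (ENSG00000110092, chromosome 11, 69641087 to 69654474, plus strand, GRCh38). It read 62.7, 62.3 and 60.7 FPKM in DMSO samples 1, 2 and 3, then 64.4, 63.5 and 62.1 at 0.3 µM, and 83.8, 78.0 and 79.2 at 1 µM. The 3 samples at 1 µM stood above the other 6, and the values of DMSO and 0.3 µM overlapped. The log2 fold change at 1 µM was 0.36 (SE 0.053, adjusted p 0.000478), a rise of 28.3%. At 0.3 µM it was 0.03, with an interval of -0.10 to 0.16; FPKM was higher in all 3 same-numbered pairs, and with the replicate block the difference was again not called (adjusted p 0.948). Between the doses it was 0.34 (SE 0.055, adjusted p 0.000877).

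CCND3, cyclin D3, is a D cyclin with the same kinase partners (ENSG00000112576, chromosome 6, 41934933 to 42050357, minus strand). It read 23.8, 19.5 and 22.5 FPKM in DMSO, 23.4, 22.8 and 25.2 at 0.3 µM, and 23.1, 24.4 and 24.5 at 1 µM. The groups overlapped, and at 1 µM the log2 fold change was 0.11 with an interval of -0.04 to 0.26 (adjusted p 0.316). The difference between the D cyclins was examined through the log2 ratio of their counts within each sample. CCND1 over CCND3 averaged 1.23 ± 0.150 (SD, n = 3) in DMSO and 1.48 ± 0.103 at 1 µM, a difference of 0.24. The groups did not overlap, and the exact two-sided permutation p was 0.1, the smallest that 3 samples against 3 allow. The separation was narrow, with DMSO sample 2 at 1.407 and 1 µM sample 2 at 1.411.

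CDK4, the kinase that D cyclins activate toward the retinoblastoma protein (ENSG00000135446, chromosome 12, 57747727 to 57756013, minus strand), moved the opposite way to CCND1. It read 52.1, 51.5 and 53.7 FPKM in DMSO, 54.3, 50.4 and 50.8 at 0.3 µM, and 44.5, 46.4 and 46.4 at 1 µM. The 1 µM samples were the lowest 3 of the 9. CDK4 fell by 0.21 on the log2 scale (SE 0.055, adjusted p 0.0157), or by 13.7%. This call was lost when DMSO sample 3, 1 µM sample 1 or 1 µM sample 3 was left out (adjusted p 0.0817, 0.0818 and 0.0584). Between the doses the log2 difference was -0.18 (adjusted p 0.0549). DESeq2 called that difference (adjusted p 0.0429), and the values over all alternatives ran from 0.0359 to 0.178.

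CDK6, the other kinase that binds D cyclins, moved upward: its log2 fold change at 1 µM was 0.31 (adjusted p 0.00299). Its level was 10.7 to 14.4 FPKM over the 9 samples, below that of CDK4 in each. CCND2, the remaining D cyclin, had 35 to 85 reads per sample and a log2 fold change of -0.18 that was not called (adjusted p 0.620).

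CCNE1, cyclin E1, activates CDK2 at the entry into S phase (ENSG00000105173, chromosome 19, 29811898 to 29824308, plus strand). It was read at 4.33, 3.22 and 3.26 FPKM in DMSO, 3.86, 3.57 and 3.88 at 0.3 µM, and 3.65, 3.37 and 3.66 at 1 µM. DMSO sample 1 was the highest, and the other values lay close together. The log2 fold change at 1 µM was -0.03 with an interval of -0.33 to 0.27, and its sign turned without DMSO sample 1 (0.12) or 1 µM sample 2 (0.005). With 142 to 191 reads per sample, a change of CCNE1 within that interval could have been missed. The interval is not a limit of detection.

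CCNE2, cyclin E2, is the close relative of cyclin E1 (ENSG00000175305, minus strand). It had 180, 242 and 179 reads in DMSO, 222, 195 and 97 at 0.3 µM, and 249, 203 and 185 at 1 µM. In FPKM these were 2.36, 3.03 and 2.39, then 2.83, 2.45 and 1.26, and then 3.08, 2.67 and 2.49. Sample 3 at 0.3 µM was the lowest of the 9. At 1 µM the log2 fold change was 0.06 (interval -0.22 to 0.34), and at 0.3 µM it was -0.25 (interval -0.70 to 0.19), which became 0.02 without that sample. CCNE2 overlaps INTS8 on the opposite strand, which held a mean of 1912 reads beside 195 for CCNE2. Whether strand was used in the counting is not given in the sources used here, so reads of the overlapping part could have gone to either gene. CCND1, CDK4, CDK2 and CCNA2 also overlap genes on the opposite strand, each of which held fewer reads: LTO1 a mean of 434 beside 5835 for CCND1, MARCH9 and TSPAN31 368 and 348 beside 2793 for CDK4, PMEL 22.8 beside 2339.8 for CDK2, and EXOSC9 884 beside 3155 for CCNA2.

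CDK2 is the partner of the E cyclins and of cyclin A (ENSG00000123374, chromosome 12, 55966769 to 55972784, plus strand). CDK2 had a lower mean level at each higher dose. It read 37.7, 40.7 and 36.4 FPKM in DMSO, 32.6, 33.9 and 34.0 at 0.3 µM, and 30.2, 31.4 and 29.8 at 1 µM. None of the 3 groups overlapped another. CDK2 fell by 0.35 at 1 µM on the log2 scale (SE 0.061, adjusted p 0.00166), or by 21.3%. At 0.3 µM the log2 difference was -0.19 (SE 0.070), with an unadjusted p of 0.0127 and an adjusted p of 0.995, so it was not called. With the replicate number as a block in edgeR it was again not called (adjusted p 0.744). The step from 0.3 to 1 µM, -0.14, was not called either (adjusted p 0.139).

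CCNA2, cyclin A2, serves in S phase and G2 (ENSG00000145386, chromosome 4, 121816444 to 121823933, minus strand). It read 64.1, 67.7 and 66.3 FPKM in DMSO, 62.9, 67.5 and 66.8 at 0.3 µM, and 57.8, 60.6 and 62.0 at 1 µM. The 1 µM samples lay below the other 6, yet the change did not pass the threshold over all genes. The log2 fold change was -0.15 with an interval of -0.27 to -0.03 (p 0.0163, adjusted p 0.0751). Of the other A cyclin, CCNA1, 96 to 147 reads were counted per sample.

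CDK1, the kinase that starts mitosis (ENSG00000170312, chromosome 10, 60778331 to 60794852, plus strand), showed the largest change of the 10 members. It read 60.3, 74.1 and 67.5 FPKM in DMSO, 51.8, 66.5 and 66.8 at 0.3 µM, and 42.8, 40.1 and 44.4 at 1 µM. All 1 µM values lay below the lowest of the others, 51.8. CDK1 fell by 0.68 on the log2 scale at 1 µM (SE 0.072, interval -0.84 to -0.53, adjusted p 4.01e-05), or by 37.7%, and was placed 60 of 15617 genes by p. Between the doses it fell by 0.54 (SE 0.083, adjusted p 0.000490). At 0.3 µM the log2 difference was -0.13, with an interval of -0.32 to 0.07. FPKM was lower at 0.3 µM in all 3 same-numbered pairs, and with the replicate number as a block the difference was again not called (adjusted p 0.779). Leaving out any 1 sample kept the call at 1 µM, with adjusted p from 4e-06 to 0.000606.

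CCNB1, cyclin B1, the main mitotic partner of CDK1 (ENSG00000134057, chromosome 5, 69167010 to 69178245, plus strand), was higher at 1 µM while CDK1 was lower. It read 151, 169 and 158 FPKM in DMSO, 151, 155 and 146 at 0.3 µM, and 182, 185 and 190.0 at 1 µM. The 1 µM samples stood above the other 6. The log2 fold change at 1 µM was 0.21 (SE 0.056, adjusted p 0.0205), a rise of 15.3%. The call was lost when DMSO sample 1, DMSO sample 3, 1 µM sample 2 or 1 µM sample 3 was left out (adjusted p 0.0618, 0.0857, 0.0566 and 0.0893). Between the doses the difference was 0.30 (SE 0.054, adjusted p 0.00193), and it was called with any 1 sample left out.

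CCNB2, cyclin B2, binds the same kinase (ENSG00000157456, chromosome 15, 59105078 to 59125045, plus strand). It read 44.7, 50.7 and 48.4 FPKM in DMSO, 45.4, 49.8 and 46.1 at 0.3 µM, and 47.9, 50.2 and 52.6 at 1 µM. The groups overlapped, and the log2 fold change at 1 µM was 0.05 with an interval of -0.09 to 0.19 (adjusted p 0.638). The log2 ratio of CCNB1 to CCNB2 counts was 1.60 ± 0.023 (SD, n = 3) in DMSO and 1.75 ± 0.036 at 1 µM. The groups did not overlap, at the smallest exact permutation p possible, 0.1. The log2 ratio of CDK1 to CDK2 counts went from 0.82 ± 0.118 to 0.49 ± 0.113, again without overlap and with an exact permutation p of 0.1. Over the 12 tests of such ratios, 4 pairs in 3 comparisons, the Benjamini-Hochberg value of each of these was 0.2. The ratio of CCNE1 to CCNE2 overlapped between groups throughout.

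The ratio of cyclin to kinase levels was set out per sample from FPKM, for partners chosen after their values were seen and so without a test. The sum of CCNB1 and CCNB2 over CDK1 was 3.24, 2.96 and 3.06 in DMSO, 3.78, 3.08 and 2.87 at 0.3 µM, and 5.37, 5.85 and 5.46 at 1 µM. The B cyclin transcripts were thus in larger excess over that of their kinase in all 1 µM samples. The sum of CCND1 and CCND3 over CDK4 was 1.66, 1.59 and 1.55 in DMSO, 1.62, 1.71 and 1.72 at 0.3 µM, and 2.40, 2.20 and 2.23 at 1 µM. CCNA2 over CDK2 was 1.70, 1.66 and 1.82 in DMSO, 1.93, 1.99 and 1.97 at 0.3 µM, and 1.92, 1.93 and 2.08 at 1 µM. CDK6, which was higher at 1 µM, was left out of the D cyclin ratio, and CDK1 out of that of CCNA2. All are ratios of transcripts and say nothing of protein.

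**Figure D3:**
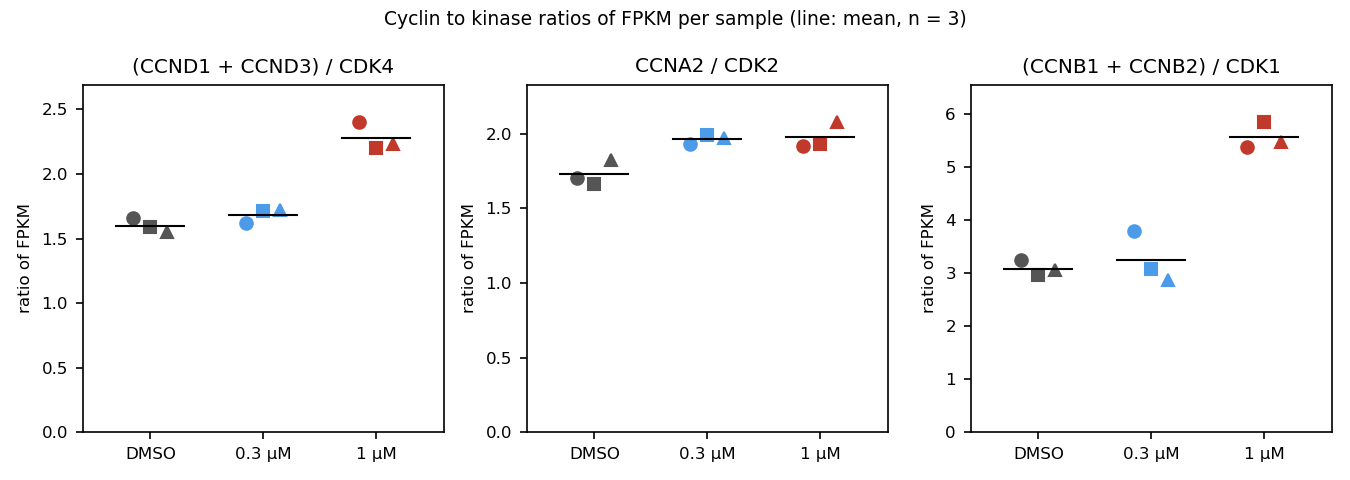
Ratio of cyclin FPKM to the FPKM of the partner kinase in each of the 9 samples (vertical axes from 0), with replicates as circle, square and triangle and the group mean as a line. For the B cyclins over CDK1 the 1 µM samples sit between 5.37 and 5.85, above the DMSO and 0.3 µM samples at 2.87 to 3.78; for CCNA2 over CDK2 the 1 µM and 0.3 µM samples overlap.

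The promoters of the A and B cyclins and of CDK1 are shown because these late cell cycle genes share known elements yet moved differently here. The windows come from RefSeq (GRCh38.p14) and run from 250 bases before to 50 after a start site, 5′ to 3′ on the strand of the gene. Windows of 7 of the 10 members were used, 10 windows in all. CCND1 and CDK2 had no matched window, and CCNE2 was left out of this search. The letters searched on both strands, printed in capitals, were TTTGAA, the cell cycle genes homology region (CHR), CCAAT, the box bound by NF-Y, TTTGGCGC, TTTCGCGC, TTTCCCGC and TTTGCCGC, forms of the E2F site, and CCGGAA, an ETS core. No match overlapped one of another kind in the 4 windows printed.
CCNA2, chr4:121823834-121824133, minus strand: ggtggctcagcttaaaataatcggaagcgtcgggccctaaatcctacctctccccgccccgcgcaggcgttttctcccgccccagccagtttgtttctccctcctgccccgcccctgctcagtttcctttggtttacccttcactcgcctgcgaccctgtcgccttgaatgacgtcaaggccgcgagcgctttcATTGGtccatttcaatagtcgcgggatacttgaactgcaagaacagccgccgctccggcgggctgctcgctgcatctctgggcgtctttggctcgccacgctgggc
CDK1, chr10:60778228-60778527, plus strand: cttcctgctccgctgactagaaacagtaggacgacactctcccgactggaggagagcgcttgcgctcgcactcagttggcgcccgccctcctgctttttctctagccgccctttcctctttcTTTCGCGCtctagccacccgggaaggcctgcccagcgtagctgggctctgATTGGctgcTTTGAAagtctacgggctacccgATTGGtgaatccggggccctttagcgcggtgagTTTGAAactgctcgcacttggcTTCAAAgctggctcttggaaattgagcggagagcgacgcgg
CCNB1, chr5:69166900-69167199, plus strand: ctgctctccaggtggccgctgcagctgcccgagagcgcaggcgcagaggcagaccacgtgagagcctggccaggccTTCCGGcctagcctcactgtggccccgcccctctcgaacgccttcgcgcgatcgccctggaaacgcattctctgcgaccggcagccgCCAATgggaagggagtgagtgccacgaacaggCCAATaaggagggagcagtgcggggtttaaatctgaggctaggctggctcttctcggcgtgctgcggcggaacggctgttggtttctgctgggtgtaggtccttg
CCNB2, chr15:59104896-59105195, plus strand: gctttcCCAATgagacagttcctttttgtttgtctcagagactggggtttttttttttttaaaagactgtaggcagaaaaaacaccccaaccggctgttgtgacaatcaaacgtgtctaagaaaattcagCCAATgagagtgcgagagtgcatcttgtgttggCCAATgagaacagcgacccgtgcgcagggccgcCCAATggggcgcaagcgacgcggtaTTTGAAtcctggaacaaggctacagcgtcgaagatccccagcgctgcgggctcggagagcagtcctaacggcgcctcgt

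The CDK1 window held 3 CHR matches, 2 CCAAT boxes and 1 E2F match, and the window of its other start held 1 of each. These windows overlap, and the E2F match is the same site in both. CCNB2 had 1 CHR match and 4 CCAAT boxes. CCNB1 had 2 CCAAT boxes and 1 ETS match, and CCNA2 had 1 CCAAT box. Of 35116 promoter windows of this length, 15.2% held the CHR letters, 34.6% CCAAT, 3.31% an E2F form and 17.2% the ETS core. CDK4 and CCNE1 held none of the 4 kinds of letters, and of the 3 CCND3 windows 2 held a CCAAT box, 1 of them with an ETS match as well. A match is a description of the letters and not of binding, and no match says only that these letters are not in the window. Forms of the CHR other than TTTGAA were not searched, so a window without a match may still hold a CHR.

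**Figure D4:**
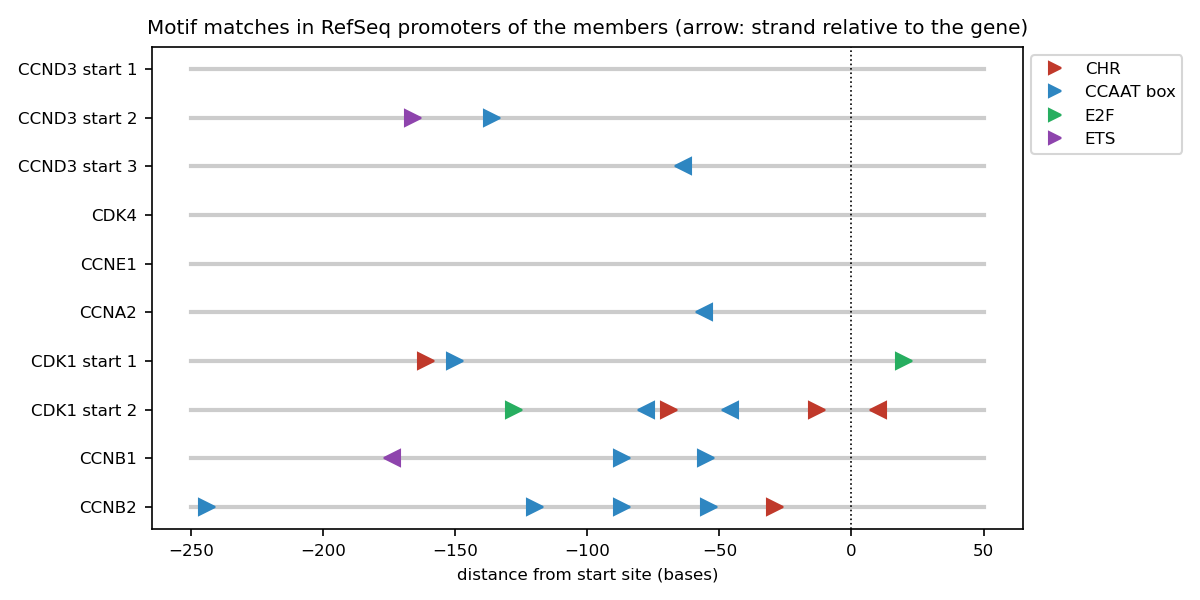
Positions of the motif letters in the 10 RefSeq promoter windows of 7 members, as distance in bases from the start site (horizontal axis); colour gives the motif and the arrow its strand relative to the gene. CDK1 and CCNB2 carry the letters TTTGAA, the only form of the CHR searched, and CCNB1 and CCNA2 do not.

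Other genes of the cell cycle machinery and of the cyclin and CDK families, in 7 lists with 49 genes of which 47 were tested, were examined at 1 µM. By the same test 12 of them were lower and 3 higher, where 9.95% and 7.67% of all genes tested were, with a median log2 fold change of -0.09. Without DMSO sample 2, 15 were called as well. At 0.3 µM none was called and 1 passed an unadjusted p under 0.05, where 594 of all 15762 genes tested did. DESeq2 called 0 of the listed genes at that dose. Against 0.3 µM, 9 were lower and 3 higher at 1 µM, where 6.75% and 5.85% of all genes were. The 3 higher genes are thus near the share over all genes in both comparisons.

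The CDK inhibitors moved in both directions, with 2 of 7 higher (7.67% of all genes were) and 3 lower (9.95% of all genes were). CDKN1A, p21, rose by a log2 fold change of 0.65 (SE 0.075, adjusted p 7.82e-05) and CDKN2B, p15, an inhibitor of CDK4 and CDK6, by 0.50 (adjusted p 0.000829). CDKN2D, p19, fell by 0.46 (adjusted p 0.00661), CDKN2A by 0.27 (adjusted p 0.0271) and CDKN1B, p27, by 0.22 (adjusted p 0.0172).

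Of the 6 genes that add or remove phosphates on CDKs, 4 were lower and none higher, beside 9.95% and 7.67% of all genes, with a median of -0.28 (-0.01 over all genes). PKMYT1 and WEE1, the kinases that hold CDK1 inactive, fell by 0.51 (adjusted p 0.00203) and 0.41 (adjusted p 0.000649) on the log2 scale. CDC25C and CDC25B, the phosphatases that release it, fell by 0.34 (adjusted p 0.0143) and 0.21 (adjusted p 0.0224). Genes with opposite actions on CDK1 were thus both lower.

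Of the 7 CDK-binding and cyclin turnover genes, 2 were lower, where 9.95% of all genes were. CKS1B, a small protein that binds CDKs, fell by 0.55 (adjusted p 0.000123), and FBXO5, an inhibitor of the anaphase-promoting complex that destroys mitotic cyclins, fell by 0.51 (adjusted p 0.000520). CDC20, an activator of that complex, had a log2 fold change of 0.15 that was not called (adjusted p 0.160).

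Of the 4 other cyclins and cell cycle CDKs tested, 1 was lower and 1 higher, where 9.95% and 7.67% of all genes were. CCNF, cyclin F, fell by 0.40 (adjusted p 0.00522), and CDK6 was the one that rose. CCNB3 and CDK3 had 0 to 3 and 0 to 13 reads and were removed by the filter on low counts. The CDK-activating kinase of CDK7, CCNH and MNAT1 had none of 3 called. Of these, 1 passed an unadjusted p under 0.05, where 4985 of all 15617 genes tested did.

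Among 10 CDKs and cyclins that work in transcription, 2 were lower (9.95% of all genes were). These were CCNL2 and CCNL1, the L cyclins known from splicing, at -0.65 (adjusted p 5.35e-05) and -0.48 (adjusted p 0.00219). Another list held FOXM1, MYBL2, the LIN subunits, RBBP4 and the NF-Y subunits, factors that act at CHR and CCAAT elements. None of its 10 genes was called by edgeR. At an unadjusted p under 0.05, 3 passed, where 4985 of all 15617 genes tested did.

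**Figure D5:**
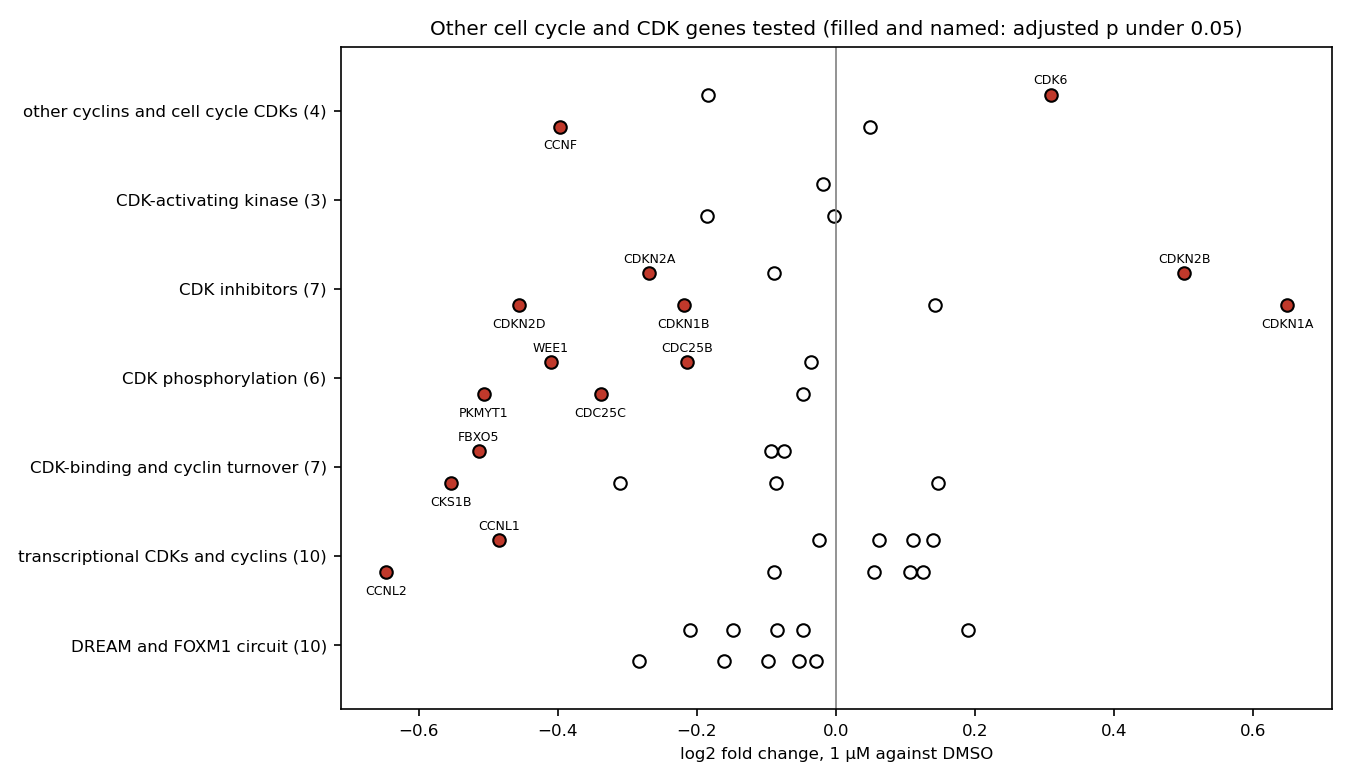
Log2 fold change at 1 µM against DMSO (horizontal axis) of 47 other genes in 7 lists (rows, with the number tested); filled and named points have an adjusted p under 0.05 by edgeR. In all, 12 filled points lie left of 0, from -0.65 to -0.21, and 3 lie to the right, from 0.31 to 0.65.

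Markers of dividing cells moved along with the kinases at 1 µM. The summed level of MKI67, PCNA and TOP2A was 342 to 373 FPKM in DMSO, 326 to 359 at 0.3 µM and 280 to 285 at 1 µM. TOP2A fell by 0.55 on the log2 scale (adjusted p 6.17e-05) and PCNA by 0.31 (adjusted p 0.00244), and MKI67 was at -0.16 (adjusted p 0.0741). The part of a changed number of cycling cells in the values of CDK1, CDK2 and CDK4 was not tested.

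For each of the 5 members called at 1 µM, the genes with the most similar course over the 9 samples were listed by Pearson's r of log2 CPM (counts scaled to library size), from 9689 genes averaging at least 10 CPM. The points share the 3 groups, so these values are a description. CDK1 was followed most closely by HP1BP3 (r 0.997), TOP2A (0.985) and THAP9-AS1 (0.984). CCND1 had TM9SF2 (0.988) and NSUN2 (0.987) among its nearest, and CCNB1 was nearest to CCT5 (0.989), GTPBP4 (0.988) and CTNNA1 (0.985). For CDK4 these were CALCOCO1 (0.991), CROCCP2 (0.979) and SNHG19 (0.974). CDK2 had the lowest values, with RNPC3 (0.954), LMBRD2 (0.952) and DNAJC22 (0.947).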

How the data were processed

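Reads were mapped by the authors with HISAT2 (GRCh38) and counted per gene, and DESeq2 is named for their comparisons. The submitters' processing notes list HISAT2 2.0.5, featureCounts 1.5.0-p3 and DESeq2 1.20.0, whereas the paper names HTSeq for counting. Whether strand was used is not given in the sources used here. The deposited table holds raw counts per gene and FPKM, which the authors derived from counts and gene length. It also holds the authors' group means, fold changes and p-values, which were not used.

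The 9 samples were grouped by their labels, which give 3 per condition, whereas the paper's methods name 2 biological replicates. Counts were tested by edgeR 4.0.16 (R 4.3.3, limma 3.58.1): genes passing filterByExpr (minimum count 10), TMM scaling and the quasi-likelihood test between the 2 groups compared, with Benjamini-Hochberg adjustment over all genes tested and a threshold of 0.05. The stricter rule added protein-coding biotype and a fold change over 1.5. The standard error is the log2 fold change divided by the square root of F, and intervals are 95%. Log2 CPM used a prior count of 2. Paralog ratios were compared by exact permutation (scipy 1.17.1). FPKM values were described only. Totals were 16903251 to 18238884 reads, and a count of 3 was the detection floor. Replicates of each group differed by more than counting noise, so depth alone does not give the precision. Alternatives were DESeq2 1.42.0, its size factors, a total count of at least 1 in place of the filter, all 9 samples in 1 fit, unadjusted p, a replicate block and leaving out each sample. The edgeR, DESeq2 and block fits were tested on simulated data.

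The members and lists were chosen with earlier results of these data known. Genes named were all members, and from each list at most 5 genes with an adjusted p under 0.05 at 1 µM plus those the filter removed; other list genes named here were chosen after their values were seen. The 3 most similar genes were sought per called member, and 1 of those for CCND1 is not reported here.

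Samples are numbered alike in each group. Correlations of deviations from the group means were taken between same-numbered samples. Those of DMSO with 0.3 µM were 0.32, 0.26 and 0.10, all above the limit of 0.1 set for pairing. Those of 1 µM with DMSO (-0.19, -0.14 and 0.09) and with 0.3 µM (-0.10, -0.10 and -0.03) were not. No label says that a number marks a shared culture or day. The main tests were unpaired in all comparisons, and the replicate number entered as a block only among the alternatives. Matplotlib 3.10.9 drew the figures.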

Additional observations from a re-analysis of the deposited data

Results flagged for a closer look

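The response of 3 members differed between the doses by the direct edgeR comparison of 1 µM with 0.3 µM, in which both groups are treated cells. CCND1 had a log2 difference of 0.34 (adjusted p 0.000877) and CCNB1 of 0.30 (adjusted p 0.00193), each with 3 of 3 samples at 1 µM above all samples at 0.3 µM. CDK1 had a log2 difference of -0.54 (adjusted p 0.000490), with 3 of 3 samples below. Groups of 3 samples are too small for a search for single outlying samples.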

How the results depend on the processing

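CDK1, CDK2 and CCND1 were called at 1 µM against DMSO under all 11 alternatives; CDK1, CCND1 and CCNB1 were called at 1 µM against 0.3 µM under all 11. Over all alternatives and comparisons, 304 of the members' log2 fold changes kept their direction and their side of the threshold, 8 were no longer called, 3 became called and 15, all of uncalled genes, changed sign. The replicate block gave adjusted p of 0.05002 for CDK4 (-0.21) and 0.0498 for CCNB1 (0.21) at 1 µM against DMSO, so CDK4 was no longer called; the block changed no other call of a member, and same-numbered samples of these groups did not deviate together. With unadjusted p, 1 member was lower and 1 list gene passed at 0.3 µM, where 594 of all 15762 genes passed. Between the doses 4 members were lower, where 4301 of all 15583 genes passed in either direction. DESeq2 and the fit of all 9 samples each called 2 members lower between the doses, CDK1 and CDK4. With a total count of at least 1 in place of the filter, CCNA2 at 0.3 µM was 0.00088.

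With each sample left out in turn, members lower at 1 µM against DMSO numbered 2 to 3 and members higher 1 to 2. Between the doses 1 to 2 were lower, the 2 without 0.3 µM sample 3, and 0 to 1 passed the fold rule, the 1 being CDK1 without 0.3 µM sample 1. Listed genes called numbered 11 to 16 at 1 µM and 9 to 12 between the doses. Sign changes at 0.3 µM lay within -0.0097 to 0.22 for CCNE1, -0.027 to 0.023 for CCNA2, -0.074 to 0.017 for CCNB2, -0.052 to 0.0030 for CDK4 and -0.48 to 0.020 for CCNE2. At 1 µM they lay within -0.10 to 0.12 for CCNE1 and -0.020 to 0.20 for CCNE2, and between the doses within -0.021 to 0.046 for CCND3. The log2 ratios ran from -0.14 to 0.0016 for CCND1 over CCND3 and -0.0066 to 0.16 for CDK1 over CDK2 at 0.3 µM, and from -0.28 to 0.11 for CCNE1 over CCNE2 at 1 µM. The cause of these changes was not tested. CCNE1 and CCNE2 had the fewest reads of the members, 97 to 249 per sample.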
